A study of Homo sapiens with 6 samples.

Results

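Histone methylation and acetylation enzymes were examined in DU-145 cells, a human prostate cancer cell line, in which a hairpin against MUC1 was or was not induced. The set holds every gene whose symbol is KDM, KMT, SETD, NSD, KAT, SIRT or HDAC followed by a number and at most 1 letter, with at least 10 reads in at least 3 libraries. Genes on chromosome Y were left out. Of 60662 genes in the count table, 66 had such a symbol, 1 was on chromosome Y and 2 (KDM4E and KDM4F) had too few reads, which left 63 members, and all 63 were among the 24695 genes tested. The DU-145 cells stably carried a tetracycline-inducible vector for the MUC1 hairpin. The 3 DOX-negative cultures received vehicle for 7 days, and the 3 DOX-positive cultures received doxycycline (DOX), which switches the hairpin on, for 7 days. Both groups then received interferon-gamma at 10 ng/ml for 24 hours, so every library comes from stimulated cells. Neither unstimulated cells nor a control hairpin with DOX were analysed here, so DOX itself and the hairpin cannot be told apart.

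Histone tails carry methyl and acetyl groups on lysines. Methyltransferases with a SET domain add methyl groups from S-adenosylmethionine, and demethylases remove them, either with a flavin cofactor (KDM1 enzymes) or with iron and 2-oxoglutarate (JmjC enzymes). Acetyltransferases transfer acetyl groups from acetyl-CoA, which is commonly linked to open chromatin, and deacetylases remove them with a zinc ion (HDAC enzymes) or with NAD+ (sirtuins). The measurements are levels of mRNA, not enzyme activity or histone marks.

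Library totals ranged from 87739734 to 150921436 reads, and the least covered member in any library, HDAC10, still had 45 reads. Levels are given in CPM, reads scaled to the effective size of each library, with SD over 3 libraries. MUC1 had 20.4, 21.8 and 22.2 CPM without DOX and 1.53, 1.31 and 1.32 CPM with DOX, in accord with the labels. The epithelial markers KRT8, KRT18, KRT19, EPCAM and CDH1 were present in all libraries, and all 5 of 5 rose, EPCAM from 54.7 to 186.8 CPM and KRT18 from 174.6 to 393.9 CPM. The prostate luminal marker KLK3 was at 0 in every library. PTPRC, the defining leukocyte marker, did not exceed 0.0569 CPM and CD3E was at 0 in every library. Of the other non-epithelial markers CD14 fell from 1.02 to 0.286 CPM, COL1A1 from 6.48 to 4.67 CPM and PDGFRB from 0.211 to 0.0862 CPM, while PECAM1 and VWF stayed under 0.208 CPM in every library and did not pass. The part of these markers in the results was not tested. These are bulk values, so a change in every cell and a change in the share of cells that express a gene cannot be told apart.

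More of these enzymes were lower than higher in DOX-positive cells. In edgeR's quasi-likelihood test at an adjusted p under 0.05, 14 members rose, 32 fell and 17 did not pass, so 73.0% were called, beside a background of 56.5% of all genes tested. By direction, 22.2% of members and 27.6% of all genes were called higher, and 50.8% of members and 28.9% of all genes were called lower. Most members are well expressed, and well-expressed genes pass more often. Among the 9763 genes with a mean of at least 10 CPM, a background added after the data were seen, 79.7% were called, 50.6% higher and 29.1% lower. Of the 54 members at that level 13 rose and 29 fell. The median log2 fold change was -0.13 over the members, -0.04 over all genes tested and 0.10 over the genes with at least 10 CPM. The groups did not overlap for 51 members, 14 higher and 37 lower, while 62.4% of all genes, and 82.1% of genes with at least 10 CPM, were separated in this way.

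The split between higher and lower depends on how the libraries are scaled. Scaling by library size alone moved the median over all genes by -0.14 (log2), and the members divided into 10 higher and 46 lower in place of 14 and 32, so that 17.9% of calls were higher instead of 30.4%. By class, that scaling gave 14 lower of 15 JmjC demethylases, 7 lower and 1 higher of 8 acetyltransferases and of 8 H3K4 methyltransferases, 3 lower and 2 higher of 7 sirtuins, and 1 lower and 2 higher of 4 class I deacetylases. It also gave 3 lower and 2 higher of 5 other SET-domain proteins, and it called both flavin demethylases and both class IIb deacetylases lower. Small fold changes are therefore relative to the scaling. Of the 46 calls, 35 kept their direction and stayed past the threshold in all 14 alternatives, 10 of them higher and 25 lower. Only 6 members changed by at least 1.5-fold, which 24.9% of all genes tested and 16.1% of genes with at least 10 CPM did. These were HDAC9 and SIRT2, which rose, and HDAC4, KDM1B, KDM4D and KDM8, which fell. All 6 were called in all 14 alternatives.

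**Figure D1:**
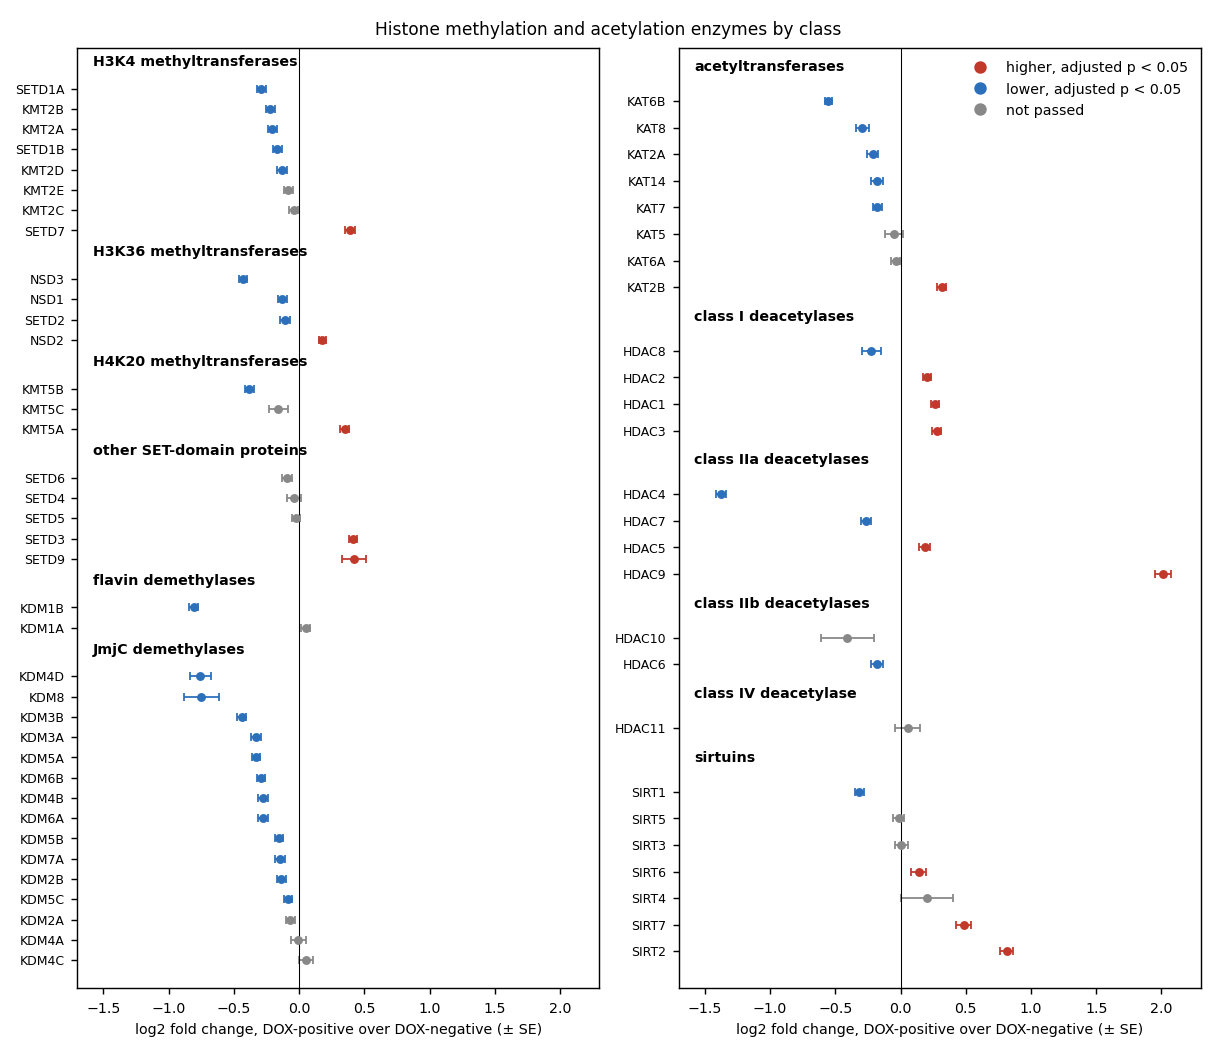
Log2 fold change (x axis, DOX-positive over DOX-negative) of the 63 members by enzyme class, with points coloured by their call at an edgeR adjusted p under 0.05 and bars giving the SE. HDAC9 at 2.01 and HDAC4 at -1.38 lie at the ends, and none of the 17 demethylases is called higher.

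The widest shifts were both in class IIa deacetylases, which shuttle between nucleus and cytoplasm, have little catalytic activity of their own on acetyl-lysine, and act as repressors through partners such as MEF2 transcription factors and the HDAC3 corepressor complex. HDAC9 and HDAC4 moved in opposite directions. Their promoter sequences are shown because the 2 genes mark the ends of the range and because a MEF2-type match occurs in only 1 of them. Each run is taken from RefSeq on GRCh38.p14 and gives 250 bases before and 2 bases from the most upstream start listed for the gene. The window of HDAC9 is chr7:18086575-18086826 on the plus strand and that of HDAC4 is chr2:239401648-239401899 on the minus strand. Capitals mark the match to the MEF2-type pattern that was searched, CTA and TAG with any 4 bases between them, which is looser than the MEF2 motif itself.
HDAC9: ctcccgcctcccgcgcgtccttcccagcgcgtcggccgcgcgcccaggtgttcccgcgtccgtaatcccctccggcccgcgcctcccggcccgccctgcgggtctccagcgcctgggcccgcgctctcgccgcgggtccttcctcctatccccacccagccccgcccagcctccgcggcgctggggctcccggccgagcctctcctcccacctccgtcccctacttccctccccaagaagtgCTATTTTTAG
HDAC4: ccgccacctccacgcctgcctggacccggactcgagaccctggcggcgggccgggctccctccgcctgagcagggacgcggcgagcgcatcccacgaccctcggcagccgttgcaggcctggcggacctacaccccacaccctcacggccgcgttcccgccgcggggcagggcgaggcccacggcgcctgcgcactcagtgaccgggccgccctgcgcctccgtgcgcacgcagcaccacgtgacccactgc
Both windows are rich in C and G, with 75.0% GC and 32 CpG sites for HDAC9 and 77.0% GC and 33 CpG sites for HDAC4.

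HDAC9 (chromosome 7, 18086949 to 19002416, plus strand, GENCODE 29 on GRCh38) had 5.28, 5.15 and 5.06 CPM without DOX and 20.5, 22.4 and 19.6 CPM with DOX. The groups did not overlap, and each DOX-positive value was more than any DOX-negative one by far more than the spread within a group. The mean was 5.16 ± 0.112 CPM without DOX and 20.8 ± 1.40 CPM with DOX, and HDAC9 rose 4.04-fold (log2 fold change 2.01 with SE 0.06, edgeR adjusted p = 1.08e-13). HDAC4 (chromosome 2, 239048168 to 239401654, minus strand) had 67.1, 63.9 and 66.3 CPM without DOX and 25.2, 24.2 and 26.5 CPM with DOX. All 3 DOX-positive values were under all DOX-negative ones. HDAC4 fell 2.60-fold (log2 fold change -1.38 with SE 0.04, edgeR adjusted p = 3.33e-14). HDAC7 fell by 0.26 on the log2 scale, from 39.2 ± 1.27 to 32.7 ± 1.34 CPM, and HDAC5 rose by 0.18, from 33.5 ± 1.004 to 38.1 ± 1.62 CPM. Scaled by library size alone, HDAC5 had a log2 fold change of 0.04 (edgeR adjusted p = 0.383, with adjusted p from 3.00e-06 to 0.383 across the alternatives).

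Divided by the gene length in the count table, the levels of the 4 class IIa genes can be set side by side. The sum over the class was 13.6 ± 0.277 CPM per kb without DOX and 11.4 ± 0.333 with DOX. HDAC4 supplied the highest share without DOX, at 35.3% to 37.3% of the class total, and the third highest with DOX, at 16.3% to 17.03%. HDAC9 went from 2.26% to 10.9% of the total on average and stayed the lowest of the 4 in every library. The mean share of HDAC5 was 32.4% without DOX and 43.7% with DOX, and that of HDAC7 was 29.1% and 28.8%. Because these are shares within a library, the scaling of the libraries does not enter them.

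**Figure D2:**
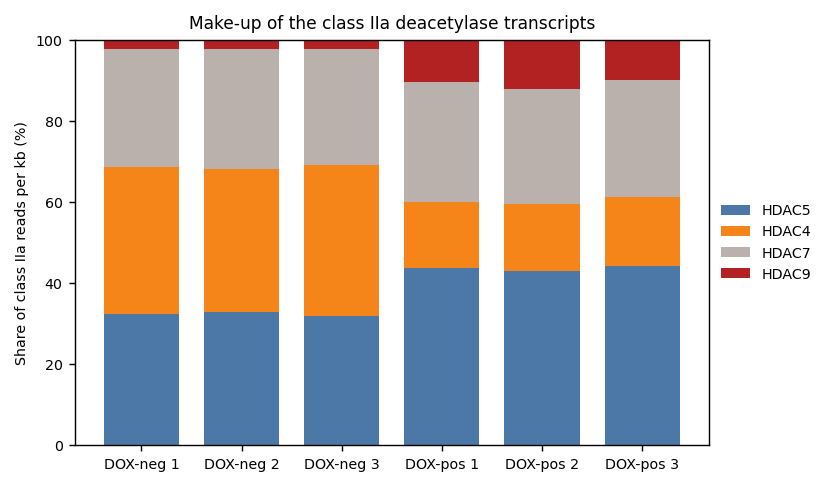
Share (y axis, %) of each class IIa deacetylase in the class's summed reads per kb of gene length, in each of the 6 libraries (x axis). HDAC9 makes up 2.26% on average without DOX and 10.9% with DOX, while HDAC4 goes from 36.3% to 16.6%.

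RefSeq promoter windows, 300 bases long with 250 before the start, were found by symbol for 57 of the 63 members. The table used has no entry for HDAC5, KAT6A, KAT8, NSD3, SETD1B and SIRT7. The most upstream window of each gene was searched on both strands for 3 motifs that were picked with the values known. The loose MEF2-type pattern occurred in 1 of 57 members, HDAC9, and in 2.85% of 27326 promoters. Its HDAC9 match, CTATTTTTAG, begins at position -8 from the start. TTCNNNGAA, the core of the interferon-gamma-activated sequence, was in 1 member, HDAC8, and in 7.88% of all promoters. The core of the interferon-stimulated response element, GAAA and GAAA with any 2 bases between them, was in 0 members and in 3.66% of all promoters. A match is only a run of letters, and for both HDAC9 and HDAC4 the table lists 5 windows, of which the most upstream was read. Gene-level counts do not say which start was used. Among genes for MEF2 factors, which were looked up after the match was seen, MEF2D rose from 176.9 to 216.7 CPM, MEF2A fell by 0.14 and MEF2C by 0.76 in log2 units (edgeR adjusted p = 6.43e-07, 0.00323 and 4.26e-05).

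Class I deacetylases are the catalytic subunits of the large nuclear corepressor complexes, and 3 of 4 rose while 1 fell. Of all genes with at least 10 CPM, a level HDAC8 did not reach, 50.6% rose and 29.1% fell. HDAC1, found with HDAC2 in the SIN3, NuRD and CoREST complexes, had 81.2, 79.6 and 79.5 CPM without DOX and 97.2, 95.3 and 95.3 CPM with DOX. HDAC2 had 83.4, 80.7 and 85.6 CPM without DOX and 95.2, 94.9 and 97.6 CPM with DOX. HDAC3, the deacetylase of the NCOR complexes, had 31.7, 31.2 and 29.9 CPM without DOX and 36.6, 37.8 and 38.03 CPM with DOX. For all 3 genes the DOX-positive libraries lay above the DOX-negative ones with no overlap, although the differences were small. The log2 fold changes were 0.26 (SE 0.03) for HDAC1, 0.20 (SE 0.03) for HDAC2 and 0.28 (SE 0.04) for HDAC3, with edgeR adjusted p = 1.48e-06, 5.15e-05 and 5.03e-06. Under library size alone HDAC2 had a log2 fold change of 0.06 (edgeR adjusted p = 0.0825), and HDAC1 and HDAC3 stayed called. HDAC8, which works outside those complexes and deacetylates cohesin, fell from 6.88 ± 0.376 to 5.89 ± 0.167 CPM (log2 fold change -0.22, edgeR adjusted p = 0.0187). Its call was lost without DOX-negative replicate 1 (0.0561) or 3 (0.125), without DOX-positive replicate 1 (0.0653) or 3 (0.0683), and in DESeq2's Wald test (0.0549), in a range of adjusted p from 0.000633 to 0.125.

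Of the remaining zinc-dependent deacetylases, HDAC6, the cytoplasmic tubulin deacetylase of class IIb, fell from 32.5 ± 1.99 to 28.7 ± 1.23 CPM (log2 fold change -0.18, edgeR adjusted p = 0.00262). HDAC10, a polyamine deacetylase, was the member with the lowest level per kb. It had 0.634, 0.743 and 0.677 CPM without DOX and 0.541, 0.554 and 0.454 CPM with DOX, which did not overlap, but the log2 fold change of -0.41 (an SE of 0.20, edgeR adjusted p = 0.104) did not pass. It passed with library size alone (adjusted p = 0.0317, in a range up to 0.263). HDAC10 shares 2763 exonic bases on the same strand with MAPK12, whose reads were 2080% of its own, so its count is uncertain. HDAC11, the class IV enzyme, had 4.36 ± 0.367 and 4.54 ± 0.258 CPM with overlapping groups (log2 fold change 0.05 with SE 0.09, edgeR adjusted p = 0.649).

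Among the 7 sirtuins 3 rose, 1 fell and 3 did not pass. The shares higher and lower were 27.6% and 28.9% over all genes tested, and 50.6% and 29.1% with at least 10 CPM. SIRT2, a mostly cytoplasmic deacetylase of tubulin that also acts on H4K16 (chromosome 19, 38878555 to 38899862, minus strand), had 18.5, 16.6 and 16.5 CPM without DOX and 29.4, 29.8 and 31.4 CPM with DOX. The groups lay far apart, and SIRT2 rose 1.76-fold (log2 fold change 0.81 with SE 0.05, edgeR adjusted p = 4.06e-10). SIRT1, the nuclear enzyme that deacetylates p53 and histones, moved the other way, with 106, 101 and 107 CPM without DOX and 83.97, 85.3 and 83.2 CPM with DOX. It fell by 0.32 on the log2 scale (SE 0.03, edgeR adjusted p = 3.70e-07), again with no overlap. SIRT7, a nucleolar H3K18 deacetylase, rose from 11.3 ± 0.753 to 15.8 ± 0.189 CPM (a log2 fold change of 0.49, SE 0.06). SIRT7 shares 105 exonic bases on the same strand with MAFG, whose reads were 697% of those of SIRT7.

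SIRT6, a chromatin-bound deacetylase, had the weakest call of the sirtuins, with 13.2 ± 0.669 and 14.5 ± 0.626 CPM, overlapping groups and a log2 fold change of 0.14 (edgeR adjusted p = 0.0431). The call was lost without DOX-negative replicate 2 (0.107) or 3 (0.105), without DOX-positive replicate 2 (0.111) or 3 (0.114) and in 3 other alternatives, and with library size alone the value was -0.0036, in a range of adjusted p from 0.00620 to 0.961. The mitochondrial sirtuins SIRT3, SIRT4 and SIRT5 had log2 fold changes of 0.01, 0.20 and -0.01 (edgeR adjusted p = 0.941, 0.403 and 0.790), and with library size alone SIRT3 passed as lower (-0.14, adjusted p = 0.0279) and so did SIRT5 (adjusted p = 0.00429).

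Of 8 acetyltransferases with the KAT symbol, 5 fell, 1 rose and 2 did not pass, and the median log2 fold change was -0.18. By comparison, 28.9% of all genes tested fell and 27.6% rose, and with at least 10 CPM 29.1% fell and 50.6% rose. KAT6B, which acetylates H3K23 and H3K14 in complexes with BRPF proteins (chromosome 10, 74824927 to 75032624, plus strand), had 74.2, 72.8 and 74.6 CPM without DOX and 49.97, 50.7 and 50.5 CPM with DOX. No values overlapped, and KAT6B fell by 0.55 on the log2 scale (SE 0.03, edgeR adjusted p = 9.46e-11). Its paralog KAT6A had 136, 132 and 139 CPM without DOX and 130.0, 131 and 136 CPM with DOX, with overlap and a log2 fold change of -0.04 (edgeR adjusted p = 0.363). KAT6A passed as lower with library size alone, with a log2 fold change of -0.18 (edgeR adjusted p = 7.55e-05, in a range up to 0.995 over the alternatives). It also passed as lower with upper-quartile scaling (edgeR adjusted p = 0.0113) and with a filter of 1 CPM in at least 3 libraries (0.0391).

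The GCN5 pair of SAGA and ATAC acetyltransferases divided. KAT2B (chromosome 3, 20040023 to 20154404, plus strand) had 24.8, 24.1 and 25.4 CPM without DOX and 30.5, 30.9 and 30.9 CPM with DOX. KAT2A had 37.1, 36.9 and 33.4 CPM without DOX and 30.4, 31.7 and 30.5 CPM with DOX. The groups were separate for both genes. KAT2B rose by 0.32 and KAT2A fell by 0.21 on the log2 scale (SE 0.04 each, edgeR adjusted p = 1.50e-06 and 0.000383). KAT8, the H4K16 acetyltransferase of the MSL and NSL complexes, fell from 22.2 ± 0.527 to 18.1 ± 0.932 CPM (log2 fold change -0.29). KAT7, which acetylates H3K14 and H4, and KAT14, an ATAC subunit, each fell by 0.18. KAT5, the catalytic subunit of the TIP60 complex, had 8.77 ± 0.637 and 8.47 ± 0.389 CPM (log2 fold change -0.05, edgeR adjusted p = 0.557), and it shares 1439 exonic bases with RNASEH2C on the opposite strand.

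H3K4 methyltransferases, which mark promoters and enhancers, included 5 members that fell, 1 that rose and 2 that did not pass. Of all genes with at least 10 CPM, 29.1% fell and 50.6% rose. KMT2A, the MLL1 enzyme, had 222, 224 and 237 CPM without DOX and 199, 196 and 197 CPM with DOX. The groups did not overlap, and KMT2A fell by 0.21 on the log2 scale (SE 0.03, edgeR adjusted p = 5.75e-05). SETD1A and SETD1B, the enzymes that deposit most H3K4 trimethylation, fell by 0.29 and 0.17, and KMT2B, the closest paralog of KMT2A, fell by 0.22. For the enhancer enzymes the values were smaller. KMT2D fell from 319 ± 7.55 to 292 ± 12.6 CPM (log2 fold change -0.13, edgeR adjusted p = 0.00540), a call lost with DESeq2 size factors (0.0602) and without DOX-negative replicate 3 (0.0659) or DOX-positive replicate 2 (0.0738), in a range from 2.51e-06. KMT2C had 205 ± 5.73 and 199 ± 3.84 CPM (log2 fold change -0.04, edgeR adjusted p = 0.308). KMT2E, a family member without known methyltransferase activity, had a log2 fold change of -0.08 (edgeR adjusted p = 0.0663), which passed without DOX-negative replicate 2 (0.0242, in a range of 2.14e-05 to 0.476). KMT2C and KMT2E also passed as lower with library size alone, with upper-quartile scaling and with a filter of 1 CPM in at least 3 libraries. In each of these settings 7 of 8 were lower.

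SETD7, a monomethyltransferase of H3K4 and of many other proteins, was the one member of that class to rise (chromosome 4, 139495941 to 139606699, minus strand). It had 186, 177 and 193 CPM without DOX and 240.2, 241 and 246 CPM with DOX, with no overlap, and rose by 0.39 on the log2 scale (SE 0.04, edgeR adjusted p = 7.61e-08).

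The H3K36 methyltransferases have roles along gene bodies and at intergenic regions. All 4 were called, 3 lower and 1 higher, beside 79.7% called among all genes with at least 10 CPM. Of those genes 29.1% were lower and 50.6% higher. NSD3 had 183, 179 and 179 CPM without DOX and 135, 134 and 133 CPM with DOX, a separation far beyond the spread, and fell by 0.43 on the log2 scale (SE 0.03, edgeR adjusted p = 4.71e-09). NSD2, with the highest level per kb of the 4, had 373, 376 and 381 CPM without DOX and 419.8, 428 and 431 CPM with DOX. NSD2 rose by 0.18 (SE 0.03, edgeR adjusted p = 5.23e-05), but with library size alone its value was 0.03 (edgeR adjusted p = 0.228). NSD1 fell by 0.13 (edgeR adjusted p = 0.00338), a call lost with DESeq2 size factors (0.0569, in a range from 1.25e-06). SETD2, the enzyme that trimethylates H3K36 behind RNA polymerase II, fell from 111 ± 4.89 to 102 ± 0.971 CPM (log2 fold change -0.11, edgeR adjusted p = 0.0165). The SETD2 call was lost in 7 of 14 alternatives, with adjusted p from 0.0604 to 0.261 without DOX-negative replicate 1 or 3 or any 1 of the 3 DOX-positive replicates, in a range from 7.74e-06.

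The H4K20 methyltransferases were called 1 higher and 1 lower of 3, and 2 of 3 lower with library size alone. Over all genes tested 27.6% were higher and 28.9% lower in the main test. KMT5A, which places the first methyl group, had 58.1, 54.9 and 52.6 CPM without DOX and 69.6, 70.6 and 71.00 CPM with DOX, and rose by 0.35 on the log2 scale (SE 0.04, edgeR adjusted p = 3.08e-07). KMT5B, which adds further methyl groups, had 48.4, 47.1 and 47.5 CPM without DOX and 35.99, 36.8 and 37.1 CPM with DOX, and fell by 0.38 (SE 0.03, edgeR adjusted p = 3.51e-08). In both genes the groups stood clear of each other. KMT5C, the other di- and trimethylating enzyme, had 7.10 ± 0.336 and 6.36 ± 0.185 CPM (log2 fold change -0.16 with SE 0.07, edgeR adjusted p = 0.0725). It passed as lower with upper-quartile scaling (edgeR adjusted p = 0.0156), a filter of 1 CPM in at least 3 libraries (0.0226) and library size alone (0.00211).

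Among the other 5 SET-domain proteins 2 rose and 3 did not pass, beside 27.6% of all genes tested that rose and 28.9% that fell. SETD3, an actin histidine methyltransferase despite its place in this family, had 109, 106 and 108 CPM without DOX and 143, 143 and 144 CPM with DOX, and rose by 0.41 on the log2 scale (SE 0.03, edgeR adjusted p = 7.80e-09). SETD9 rose from 3.76 ± 0.260 to 5.05 ± 0.248 CPM (a log2 fold change of 0.42, SE 0.09). SETD6, which methylates RELA, had a log2 fold change of -0.09 (edgeR adjusted p = 0.0525), which passed without DOX-negative replicate 2 (0.0425, in a range of 9.12e-05 to 0.386). It also passed as lower with library size alone (edgeR adjusted p = 9.12e-05), upper-quartile scaling (0.00271) and a filter of 1 CPM in at least 3 libraries (0.00616). SETD6 shares 1086 exonic bases with CNOT1 on the opposite strand, whose reads were 2640% of its own. SETD4 and SETD5 had values of -0.04 and -0.02. Both passed as lower with library size alone (edgeR adjusted p = 0.00930 and 0.000157), and SETD5 also with upper-quartile scaling (0.0243).

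Over all genes tested 28.9% were lower and 27.6% higher, and with at least 10 CPM 29.1% were lower and 50.6% higher. Among the demethylases edgeR's test called 13 of 17 lower and 0 higher, and 4 did not pass. The 4 were KDM1A, KDM2A, KDM4A and KDM4C, and of these only KDM2A had a p under the threshold in any fit that left out 1 library. The flavin enzymes differed from each other. KDM1B (chromosome 6, 18155329 to 18223853, plus strand), an H3K4 demethylase of gene bodies, had 70.2, 71.4 and 72.7 CPM without DOX and 39.6, 42.4 and 40.2 CPM with DOX. The groups were widely separated and KDM1B fell 1.75-fold (log2 fold change -0.81 with SE 0.03, edgeR adjusted p = 5.00e-12). KDM1A, the LSD1 enzyme of the CoREST complex, had 108, 103 and 108 CPM without DOX and 109, 111 and 110.3 CPM with DOX. These groups did not overlap but lay close together, with a log2 fold change of 0.05 (an SE of 0.03, edgeR adjusted p = 0.200). KDM1A turned to -0.09 and passed with library size alone (edgeR adjusted p = 0.0127, in a range up to 0.803).

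Of the 15 JmjC demethylases 12 fell and 3 did not pass, the median log2 fold change was -0.28, and with library size alone 14 fell. In the main test 80.0% were thus lower, beside 28.9% of all genes tested and 29.1% of genes with at least 10 CPM. KDM4D, an H3K9 demethylase encoded by a gene with a single coding exon (chromosome 11, 94973681 to 94999518, plus strand), had 6.41, 6.52 and 6.38 CPM without DOX and 3.64, 3.99 and 3.77 CPM with DOX. KDM8, a JmjC hydroxylase (chromosome 16, 27203495 to 27221768, plus strand), had 2.34, 2.34 and 2.72 CPM without DOX and 1.47, 1.60 and 1.31 CPM with DOX. Every DOX-positive value of both genes was under every DOX-negative one. KDM4D fell 1.69-fold and KDM8 fell 1.68-fold (log2 fold change -0.76, SE 0.08, and -0.75, SE 0.14, edgeR adjusted p = 5.71e-07 and 0.000177). Both have low counts, and KDM8 shares 585 exonic bases with an opposite-strand gene whose reads were 14.4% of its own.

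The H3K9 demethylases KDM3B and KDM3A fell by 0.44 and 0.33 on the log2 scale, KDM3B from 152 ± 4.69 to 112 ± 1.97 CPM and KDM3A from 61.1 ± 1.25 to 48.6 ± 2.63 CPM. The H3K27 demethylases KDM6A and KDM6B, which oppose Polycomb, fell by 0.28 and 0.29. KDM6B had 109, 109 and 108 CPM without DOX and 90.9, 85.2 and 90.4 CPM with DOX, and KDM6A had 32.97, 33.3 and 34.99 CPM without DOX and 27.6, 27.6 and 28.3 CPM with DOX. Neither gene had overlapping groups (edgeR adjusted p = 1.28e-06 and 5.83e-06).

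The H3K4 demethylases of the KDM5 family fell by different amounts, KDM5A by 0.33, KDM5B by 0.15 and KDM5C by 0.08 on the log2 scale. KDM5A went from 69.7 ± 1.24 to 55.6 ± 0.753 CPM and KDM5B from 125 ± 2.91 to 113 ± 1.37 CPM (edgeR adjusted p = 9.05e-08 and 0.000705). The KDM5C call (edgeR adjusted p = 0.0353) was lost in 8 of 14 alternatives, with adjusted p of 0.414, 0.205, 0.178, 0.165 and 0.0709 without DOX-negative replicate 1 or 3 and DOX-positive replicate 1, 2 or 3. KDM4B fell by 0.28, KDM7A by 0.14 and KDM2B by 0.14. KDM7A was not called without DOX-negative replicate 3 (0.0566) and KDM2B was not called without DOX-negative replicate 1 (0.0519), with ranges from 2.21e-06 and 2.53e-06. KDM2A had a log2 fold change of -0.07 (edgeR adjusted p = 0.114, and 0.0128 without DOX-negative replicate 2, in a range of 3.56e-05 to 0.780). It also passed as lower with library size alone (edgeR adjusted p = 3.56e-05), upper-quartile scaling (0.00236) and a filter of 1 CPM in at least 3 libraries (0.00970). KDM4A had -0.01 and KDM4C 0.05.

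**Figure D3:**
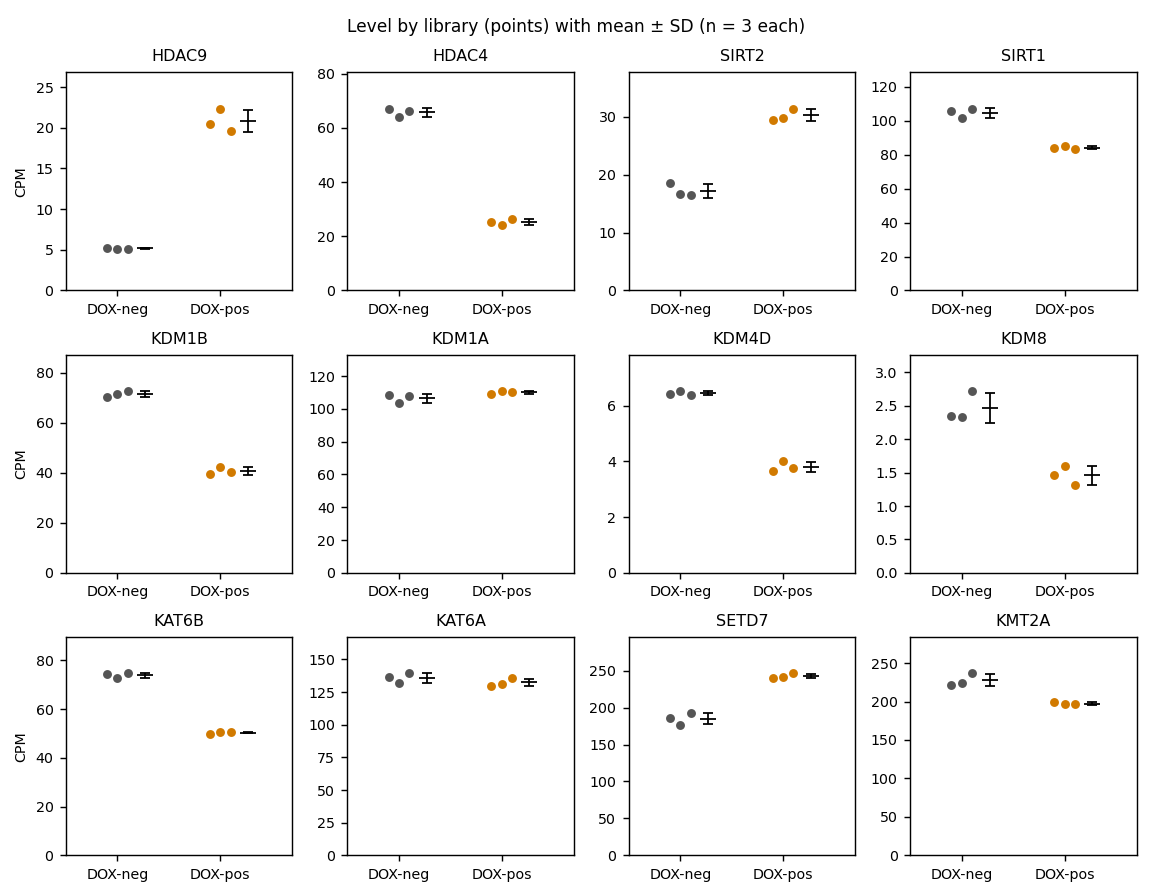
Level (y axis, CPM from 0) in each library (points) for 12 members, with mean ± SD (n = 3 each) beside the points and the groups on the x axis. HDAC9, SIRT2 and SETD7 are higher with DOX, HDAC4, SIRT1, KDM1B, KDM4D, KDM8, KAT6B and KMT2A are lower, and the DOX-negative and DOX-positive values of KAT6A overlap while those of KDM1A differ by less than 10 CPM.

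Pairs of members of the same enzyme class were also compared within each library, where the scaling cancels. The 8 pairs were chosen after their values were seen, and the ratios, of CPM per kb, are given with no test. HDAC9 over HDAC4 was 0.0607 to 0.0641 without DOX and 0.587 to 0.733 with DOX, a 10.5-fold difference of means. SIRT2 over SIRT1 was 0.120 ± 0.00790 and 0.263 ± 0.0117, and KAT2B over KAT2A was 0.502 ± 0.0426 and 0.722 ± 0.0156. In the opposite direction, KDM1B over KDM1A was 0.650 ± 0.0210 and 0.358 ± 0.0106, KMT5B over KMT5A 0.458 ± 0.0188 and 0.276 ± 0.00159, and NSD3 over NSD2 0.622 ± 0.0126 and 0.409 ± 0.00820. KAT6B over KAT6A was 0.404 ± 0.00578 without DOX and 0.283 ± 0.00563 with DOX. Each of these 7 ratios had groups that did not overlap. HDAC1 over HDAC2, at 3.72 ± 0.116 and 3.87 ± 0.0879, did overlap. The 7 pairs join members already seen to change by different amounts, so their separation adds no evidence beyond the single genes. Taken singly, 82.1% of genes with at least 10 CPM were separated.

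Levels per kb of gene length put SETD3, HDAC1, SIRT1, NSD2 and KDM1A highest by mean over all libraries, and HDAC10, HDAC8, KDM8, SIRT4 and HDAC9 lowest, over a range of 0.121 to 24.2 CPM per kb. HDAC9 thus changed the most on the fold scale from one of the lowest levels, 0.307 CPM per kb without DOX and 1.24 with DOX. HDAC4 had 4.92 and 1.90 CPM per kb. Summed by class, JmjC demethylases had 100.2 ± 1.85 CPM per kb without DOX and 85.2 ± 0.810 with DOX, and acetyltransferases 43.1 ± 0.658 and 39.6 ± 0.154. Class I deacetylases had 32.6 ± 0.393 and 38.8 ± 0.115. The sirtuin sums were 39.5 ± 0.602 and 38.4 ± 0.228, a difference of a few percent in which SIRT1 and SIRT2 partly cancel. The sums of these 4 classes had no overlap between groups, and the same held for every other class except class IV. Unlike shares within a library, these sums depend on the scaling. The sirtuin groups lay close together, with a lowest sum of 38.9 without DOX and a highest of 38.5 with DOX.

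Gene length moved with the direction of change. The median length in the count table was 10013.5 bases for members that fell, 5672.5 for those that rose and 5553 for those that did not pass. Over genes with at least 10 CPM the medians were 6532.5, 5052.5 and 5586 bases. When those genes were divided into quartiles by length, a division made after the data were seen, the median log2 fold change was 0.21 in the shortest quartile, then 0.12, 0.07 and 0.01 in the longest. In the longest quartile, 8166 bases or more, 41.4% of genes rose and 39.3% fell. Of the 54 members with at least 10 CPM, 30 were in that quartile, with 4 higher, 20 lower and a median of -0.14. The other 24 had 9 higher, 9 lower and a median of -0.01. HDAC9, HDAC4 and KAT6B are all in the longest quartile. The part of length in the result was not tested.

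**Figure D4:**
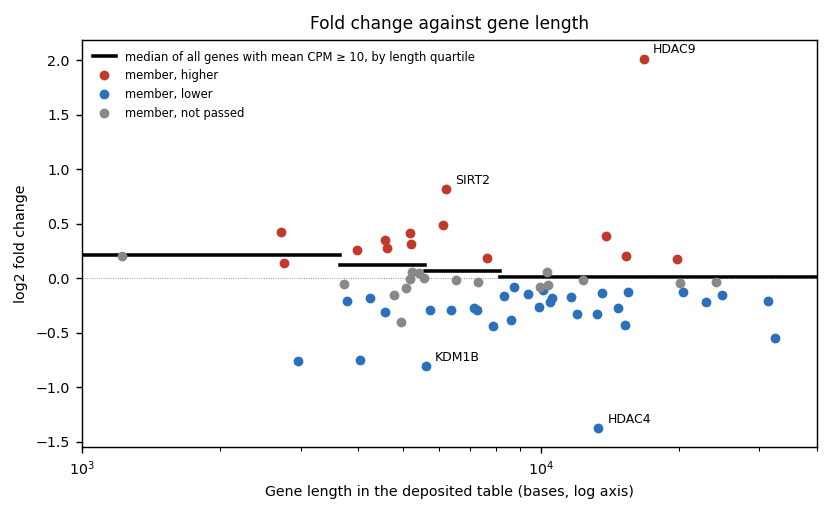
Log2 fold change (y axis) of each member against its gene length in the count table (x axis, bases, log scale), coloured by call at an edgeR adjusted p under 0.05, with black bars at the median of all genes with at least 10 CPM in each length quartile. Those medians go from 0.21 in the shortest quartile to 0.01 in the longest, where 20 of 30 members with at least 10 CPM are lower.

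In GENCODE 29, 33 of 63 members share exonic bases with another gene, 27 of them with a gene on the opposite strand. For 14 members the reads of such a gene came to more than 10% of the member's own. These include SIRT2, which shares 40 bases with NFKBIB, HDAC7, which shares 32 bases with SLC48A1, KDM5A, which shares 182 bases with CCDC77, and NSD3, which shares 545 bases with DDHD2. The libraries are strand-specific, but the strand setting of the counting is not given in the sources used here. For HDAC10 and SIRT7 the overlap is on the same strand, where that setting would not separate the genes. The counts of these 14 are therefore uncertain, to an extent that was not tested. Neither HDAC9, KDM1B nor KDM4D is among the 33, and the gene that overlaps HDAC4 had 2.78% of its reads.

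Other genes of the same pathways were taken from 7 lists of partner subunits, further enzymes and cofactor suppliers. Of 110 genes tested 38 rose and 44 fell, and the median log2 fold change was -0.03, beside 27.6% higher and 28.9% lower over all genes. Most of the 110 had a mean of at least 10 CPM. Among all genes at that level 50.6% were higher and 29.1% lower, with a median of 0.10. Among 20 deacetylase corepressor subunits 7 rose and 9 fell. TBL1XR1, a subunit of the NCOR complexes with HDAC3, had 383, 366 and 377 CPM without DOX and 149, 155 and 150.2 CPM with DOX. It fell 2.48-fold (log2 fold change -1.31 with SE 0.03, edgeR adjusted p = 1.04e-14), with groups far apart, while HDAC3 itself rose. DNTTIP1, a partner of HDAC1 and HDAC2 in the mitotic deacetylase complex, rose from 20.1 ± 1.10 to 37.6 ± 1.73 CPM. RCOR2, named after its values were seen, fell 3.10-fold from 1.87 ± 0.180 CPM, while RCOR1, its CoREST paralog and likewise named afterwards, rose from 153 ± 3.01 to 188 ± 1.94 CPM.

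Of 10 acetyltransferases without a KAT symbol 8 fell and 1 rose, with a median of -0.20. The nuclear receptor coactivator NCOA3 fell from 176 ± 8.29 to 99.9 ± 2.61 CPM and the transcription factor ATF2 from 81.2 ± 1.81 to 53.1 ± 1.75 CPM. The large coactivators EP300 and CREBBP, named once their values were known, fell by 0.25 and 0.20 (log2). HAT1, which acetylates newly made histone H4 and was also named afterwards, was the 1 that rose (0.42). Among 29 acetyltransferase complex subunits 10 rose and 12 fell. EPC1, of the TIP60 complex, fell by 0.45, and JADE1, a partner of KAT7, fell by 0.34.

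Of 12 subunits that work with H3K4 methyltransferases 3 rose and 3 fell. PSIP1, which tethers the KMT2A complex to chromatin, fell from 157 ± 4.37 to 113 ± 1.54 CPM, and WDR5, a core subunit, from 72.4 ± 0.946 to 57.3 ± 0.799 CPM. Of 13 further histone methyltransferases 5 rose and 3 fell. SMYD2 fell from 34.1 ± 0.665 to 20.6 ± 0.304 CPM, while SMYD5 rose from 35.3 ± 1.28 to 51.7 ± 0.436 CPM. Of 8 other JmjC proteins 4 rose and 1 fell, which is 50.0% higher and 12.5% lower. Over all genes tested the shares were 27.6% and 28.9%, and with at least 10 CPM 50.6% and 29.1%. The difference from the JmjC enzymes with a KDM symbol was not tested. JARID2, a Polycomb partner without demethylase activity, rose from 53.9 ± 0.593 to 87.5 ± 1.62 CPM (log2 fold change 0.70, edgeR adjusted p = 7.54e-12), and PHF2 fell by 0.32.

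Of 18 genes that supply or clear the cofactors 8 rose and 8 fell. ACSS2, which makes acetyl-CoA from acetate, had 89.5, 82.3 and 86.9 CPM without DOX and 148, 152 and 151 CPM with DOX, and rose 1.74-fold (edgeR adjusted p = 1.08e-11). AHCYL2, a relative of the enzyme that clears S-adenosylhomocysteine, rose from 51.7 ± 3.01 to 73.8 ± 2.48 CPM.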

How the data were processed

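RNA from 6 DU-145 cultures was sequenced as strand-specific mRNA libraries, per the labels' protocols. The deposited table gives raw counts of reads for each gene in each library, with a gene length that the authors deposited and whose definition is not given in the sources used here. GRCh38.p7, STAR 2.7.9a, CASAVA 1.8.2 and DESeq2 1.24.0 are named in the submitters' processing notes, without roles. How reads were counted, with which annotation and strand setting, is not given in the sources used here. The 66 genes without a symbol hold 0.000516% of reads.

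Groups and replicate numbers came from the titles. In R 4.3.3, edgeR 4.0.16 tested the counts (quasi-likelihood F test, a single term for group) with TMM scaling, filterByExpr defaults (minimum count 10, minimum total 15) and Benjamini-Hochberg adjustment over 24695 genes at 0.05. CPM uses TMM-scaled library sizes. The SE of a log2 fold change is its absolute value over the square root of F. The upper limit for a gene with 0 reads, 3 reads, was 0.0204 to 0.0328 CPM, for counting error only. Chi-square per degree of freedom between libraries was 6.40 to 20.8 within groups and 214 to 285 across them, so no pair of libraries was a duplicate. Cultures are described as triplicates, without separate passages or days, so p-values reflect only the spread among these 6. The test was checked on simulated data in which few genes changed, unlike these data, so that check does not bear on the scaling.

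The members, classes and other lists were chosen with earlier results of these data known. Named were MUC1, members changed at least 1.5-fold, the 3 with the smallest p in each class, 16 members whatever their result, and 2 genes from each other list. Other members are given to account for each class, with their values known. Some of the marker genes are not reported here. In the acetyltransferase complex list 1 gene, ZZZ3, was not found by symbol. The 14 alternatives changed the scaling (DESeq2 size factors, upper quartile, library size alone), the filter (none, or 1 CPM in at least 3 libraries), the test (limma-voom in limma 3.58.1, or the Wald test in DESeq2 1.42.0) and the design (replicate number as block), or left out each library in turn. Positions and overlaps are from GENCODE 29, and promoters from RefSeq. Figures were drawn with matplotlib 3.10.9.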

Additional observations from a re-analysis of the deposited data

How the results depend on the processing

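The counts of members called stayed within 1.5 times the reported 14 higher and 32 lower in all 14 alternatives, from 10 to 14 higher and from 27 to 46 lower. With 1 library left out the counts were 13 to 14 higher and 27 to 35 lower. DESeq2's Wald test gave 14 higher and 29 lower, and limma-voom gave 14 and 32. With library size alone, 5 members changed sign, KDM1A to -0.093, SIRT6 to -0.0036, SIRT3 to -0.138, KDM4C to -0.0916 and HDAC11 to -0.0885 on the log2 scale, and KDM4C and HDAC11 passed in neither fit. Upper-quartile scaling gave 13 higher and 39 lower. Of the 46 calls, 11 were lost in at least 1 alternative. Replicate numbers did not pair the libraries: deviations from the group means of libraries with the same number had correlations of -0.0673, -0.025 and 0.00986 over 24695 genes, and not every library correlated best with its own number. With the replicate number as a block, 13 members were higher and 33 lower, the SIRT6 call was lost (adjusted p = 0.0738) and KMT2E was gained. HDAC10, SIRT4 and KDM8 had the lowest levels in CPM, and with them the largest SE (0.20, 0.20 and 0.14). The causes of these changes were not tested.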

Other observations

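The genes on either side of the 6 members that changed at least 1.5-fold gave the following values, looked up after the members were known. TPMT, which begins 255 bases from KDM1B, rose from 47.0 ± 0.789 to 63.9 ± 1.19 CPM while KDM1B fell, and DEK, 15 bases beyond its other end, had a log2 fold change of 0.03 (edgeR adjusted p = 0.488). CWC15, a splicing factor gene 69 bases from KDM4D, rose by 0.35 on the log2 scale while KDM4D fell. NSMCE1, 3223 bases from KDM8, rose by 0.54 while KDM8 fell. Beside HDAC4, TWIST2 fell by 0.28 and NDUFA10 rose by 0.29. TWIST1, the neighbour of HDAC9, was at 0 reads in all 6 libraries, and PRPS1L1 on the other side did not pass (edgeR adjusted p = 0.543). RINL, 276 bases from SIRT2, had a log2 fold change of -0.26 and did not pass (edgeR adjusted p = 0.486). The remaining neighbours, CCER2 beside SIRT2, HS3ST4 beside KDM8 and KDM4E beside KDM4D, had too few reads to be tested.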
